A study of Stylophora pistillata with 24 samples.

Results

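The change in gene expression that translocation to depth brought at both juvenile ages was measured in Stylophora pistillata, a brooding stony coral with branched colonies. All 12 juvenile libraries of the series entered, out of 24 libraries in all. They were chosen by label alone. All juveniles were of shallow reef origin and grew on the reef in plastic settlement chambers. The 6 controls grew at 5 m and the 6 translocated juveniles at 45 m, on the mesophotic reef, and each set held 3 libraries collected at 8 days and 3 at 60 days. Controls and translocated juveniles therefore shared their shallow origin and the chambers and differed in growth depth. The common effect is the difference between 45 m and 5 m in a model that also holds age. Polyadenylated RNA came from whole organism tissue, so it mixed all coral cell types, and transcripts of the symbiotic algae were not analysed here. The labels name neither separate colonies nor separate broods for the libraries of a group, so a p-value here reflects how far these libraries scatter, and that scatter may be technical. They also give no hour of collection and no sequencing batch.

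Light dims and shifts towards blue with depth, and a reef coral takes much of its energy from the photosynthesis of its algae. Coral cells sense light through opsins and cryptochromes, and their daily clock is set by light through feedback among transcription factors. Mitochondria burn sugars, lipids and amino acids through the citrate cycle, fatty acid oxidation and the respiratory chain, whose complexes carry heme and iron-sulfur groups.

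Library totals ran from 15.79 to 35.78 M counts (M, 1e+06). They averaged 21.0 ± 5.89 M (SD, n = 6) in translocated and 26.3 ± 5.77 M (SD, n = 6) in control juveniles, a difference of −5.30 M (exact permutation test within age, 2-sided, p = 0.08, 0.107 after Benjamini-Hochberg adjustment over 4 library measures). The TMM scaling factor averaged 0.961 ± 0.0967 in translocated and 1.05 ± 0.0293 in control libraries (exact permutation p = 0.015, adjusted 0.06), and the lowest, 0.782, was that of translocated 60-day replicate 3. On the first principal component (36.3% of variance) the ages separated. On the second (13.9%) all 6 controls lay at 13.4 to 96.6 and all 6 translocated libraries at −103 to 7.82, so the depths separated there too. Translocated 60-day replicate 1 stood apart on the third component (11.9%), at 121, and had 1.79% of its counts in genes outside the annotated table, against 0.455 to 0.789% in the other 11. The share of counts in the top 100 genes was 26.8 ± 2.94% in translocated and 23.9 ± 1.30% in control libraries (SD, n = 6; exact permutation p = 0.05, adjusted 0.1), and at 60 days it was 27.7 to 30.3% against 23.1 to 23.8%. No 2 libraries were near copies. Of 5 cell type marker lists with members, none had a member past the test. The summed level of the 52 neuron markers tested was 1544 to 1690 CPM (counts scaled to 1e+06 per library) in 8-day controls, 1692 to 1780 CPM in 8-day translocated juveniles, 1489 to 1686 CPM in 60-day controls and 1876 to 2119 CPM in 60-day translocated juveniles. Its ranges did not overlap between depths at either age, but at 8 days they nearly touched. The medians were 1682 CPM in controls and 1698 CPM in translocated juveniles at 8 days, and 1529 and 2015 CPM at 60 days. Muscle markers were apart at 8 days (2202 to 2639 CPM in controls, 2765 to 2843 CPM in translocated juveniles) and overlapped at 60 days. Gland cell markers, 28 of 35 above 0 at a median log2 fold change of 0.68, had summed levels of 559 to 848 CPM against 799.5 to 1096 CPM at 8 days and 398 to 622 CPM against 518 to 797 CPM at 60 days, which overlapped at both ages, as did those of calicoblast and germ cell markers. No product name matched the marker words for stinging cells or algal cells. A separate list of nematocyst and venom genes, many of them products of stinging cells, had 0 of 26 called and 22 above 0, at a median of 0.74. Its summed level was 349 to 438 CPM in 8-day controls, 519.8 to 619.6 CPM in 8-day translocated juveniles, 195 to 256 CPM in 60-day controls and 430.2 to 805.5 CPM in 60-day translocated juveniles, with no overlap at either age. The part of these levels in the results below was not tested.

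Across both ages 163 of 23592 genes tested (0.691%) differed between depths at an adjusted p under 0.05. Of these, 85 genes (0.360% of those tested) rose at 45 m and 78 (0.331%) fell. Over all genes tested 12370 had a log2 fold change above 0 and 11222 below 0, and 18.5% had an unadjusted p under 0.05. Products of the mitochondria were frequent among the genes that fell. Of 450 tested genes whose product name holds the word mitochondrial, 30 (6.67%) fell and 0 rose, and their median log2 fold change was −0.33 beside 0.03 over all genes tested. That group was chosen by name after the values were seen. The genes that rose included clock regulators, heat shock factor 1 with DnaJ co-chaperones, metalloproteinases and receptors. The median log2 fold change was 1.36 among the genes that rose and −0.97 among those that fell, and 99 of the 163 changed by at least 2-fold. In RNA of whole organisms, fewer cells of a type and less RNA per cell cannot be told apart. Adjusted p-values are from edgeR's quasi-likelihood test, Benjamini-Hochberg adjusted across the full set of 23592 genes.

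The depths did not overlap at 8 days nor at 60 days, in the same direction, in 148 of the 163 genes. These were 76 genes that rose and 72 that fell. Over all genes tested that held for 820 (3.48%), 1.52% of genes higher and 1.95% lower at 45 m. The 163 were called on these same libraries, which favours such separation. In 91 of the 163 all 6 translocated libraries lay on one side of all 6 controls, which held for 281 genes (1.19%) of all. The count of called genes depended strongly on single libraries. It fell to 28 without translocated 8-day replicate 3, 32 without control 60-day replicate 3, 33 and 39 without control 8-day replicates 1 and 3, 41 and 49 without control 60-day replicates 1 and 2, 41 and 70 without translocated 60-day replicates 2 and 3, and 62 without translocated 8-day replicate 2. It rose to 464 without translocated 60-day replicate 1 and 315 without translocated 8-day replicate 1. No called gene changed sign in any of these fits, each of which shares all but 1 library with the main fit. In all 12 of them 23 genes stayed called, among them a bHLHe40 gene, aquaporin-3, the adenosine receptor A1, methionine synthase and medium-chain acyl-CoA dehydrogenase. The count of lowered genes with a mitochondrial name ranged from 3 (without control 8-day replicate 1 or translocated 8-day replicate 3) to 43 (without control 8-day replicate 2).

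The sign was the same at both ages in all 163 genes, which a test of the common effect favours, and in 61.6% of all genes tested. The effect was larger at 60 days in 145 of them, beside 61.9% of all genes tested. Among the genes that rose the median log2 fold change was 1.09 at 8 days and 1.75 at 60 days. Among those that fell it was −0.67 and −1.24. A formal test of the difference between ages (the interaction of depth and age) passed the threshold in 9 genes of 23592 (0.0381%), and 2 of these 9 were among the 163. At an unadjusted p under 0.05 it took in 51 of the 163 and 9.40% of all genes tested.

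**Figure D1:**
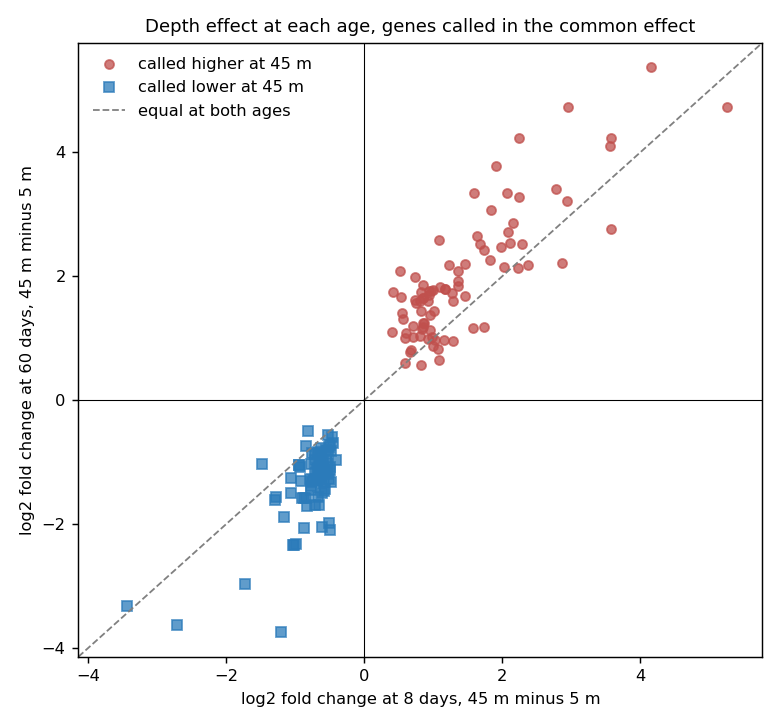
Log2 fold change of 45 m against 5 m at 8 days (x axis) and at 60 days (y axis) for the 163 called genes, circles for the 85 that rose and squares for the 78 that fell. All points lie in the lower left or the upper right quadrant, and 145 of them lie farther from 0 at 60 days than at 8 days. Dashed line: equal effects.

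Some clock regulators were among the genes that rose. Of 13 tested genes of the clock and blue-light list, 5 rose and 0 fell, beside 0.360% higher over all genes. The median of the list was −0.07, since 7 of the other 8 lay below 0. A gene named for bHLHe40 (gene8345), in mammals a repressor that closes a loop of the clock, was at 12.7, 15.7 and 13.5 CPM in the 8-day controls against 34.2, 31.99 and 41.2 CPM in the 8-day translocated juveniles, and 61.7, 77.8 and 71.2 CPM against 342, 293 and 257 CPM at 60 days. Every translocated library exceeded every control of its age, with a log2 fold change of 1.72 ± 0.16 (SE), adjusted p = 0.00139, the smallest p of all genes tested. The thyrotroph embryonic factor gene10071, a transcription factor of the PAR bZIP family that is under clock control in vertebrates, was at 36.3, 42.6 and 35.2 CPM in the 8-day controls against 72.4, 90.1 and 94.3 CPM in the 8-day translocated juveniles, and 209.6, 252 and 178 CPM against 1099, 662 and 467 CPM at 60 days. Again each age showed no overlap, although the 60-day translocated libraries spread widely, and the log2 fold change was 1.49 ± 0.21 (SE), adjusted p = 0.0158. Its namesake gene1874 was at 3.07, 3.71 and 2.39 CPM in the 8-day controls against 7.01, 12.4 and 13.3 CPM in the 8-day translocated juveniles, and 0.78, 1.97 and 3.81 CPM against 10.1, 6.25 and 14.7 CPM at 60 days. All 6 translocated libraries lay above all 6 controls, with a log2 fold change of 2.04 ± 0.36 (SE), adjusted p = 0.0311.

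The second bHLHe40 gene (gene25223) averaged 29.3 ± 6.03 CPM in 8-day controls and 42.4 ± 3.64 CPM in 8-day translocated juveniles, then 84.6 ± 16.99 and 269.9 ± 23.1 CPM at 60 days (SD, n = 3), with a log2 fold change of 1.11 ± 0.21 (SE), adjusted p = 0.041. Cryptochrome-1 (gene17590), a blue-light receptor or clock repressor in animals, was at 147, 193 and 105 CPM in the 8-day controls against 271, 259 and 259 CPM in the 8-day translocated juveniles, and 426, 352 and 378 CPM against 540.3, 558 and 610.4 CPM at 60 days. The rise was the smallest of the 5, with a log2 fold change of 0.69 ± 0.14 (SE), adjusted p = 0.0477, with no overlap at either age. The remaining members did not pass the test. A further cryptochrome-1 gene (gene25041) had a log2 fold change of −0.76 (adjusted p = 0.0983), nocturnin (gene17927) of −0.64 (adjusted p = 0.131) and 3 genes named for CLOCK (gene786, gene4863 and gene3995) of 0.34, −0.63 and −0.43. With 1 library left out, gene8345 and gene10071 stayed called in all 12 fits, while gene1874, gene25223 and gene17590 did so in 5 of 12, in 3 of 12 and in 2 of 12 (adjusted p = 0.122 without control 8-day replicate 1 for cryptochrome-1). Genes with 1 name may be close copies that share reads.

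**Figure D2:**
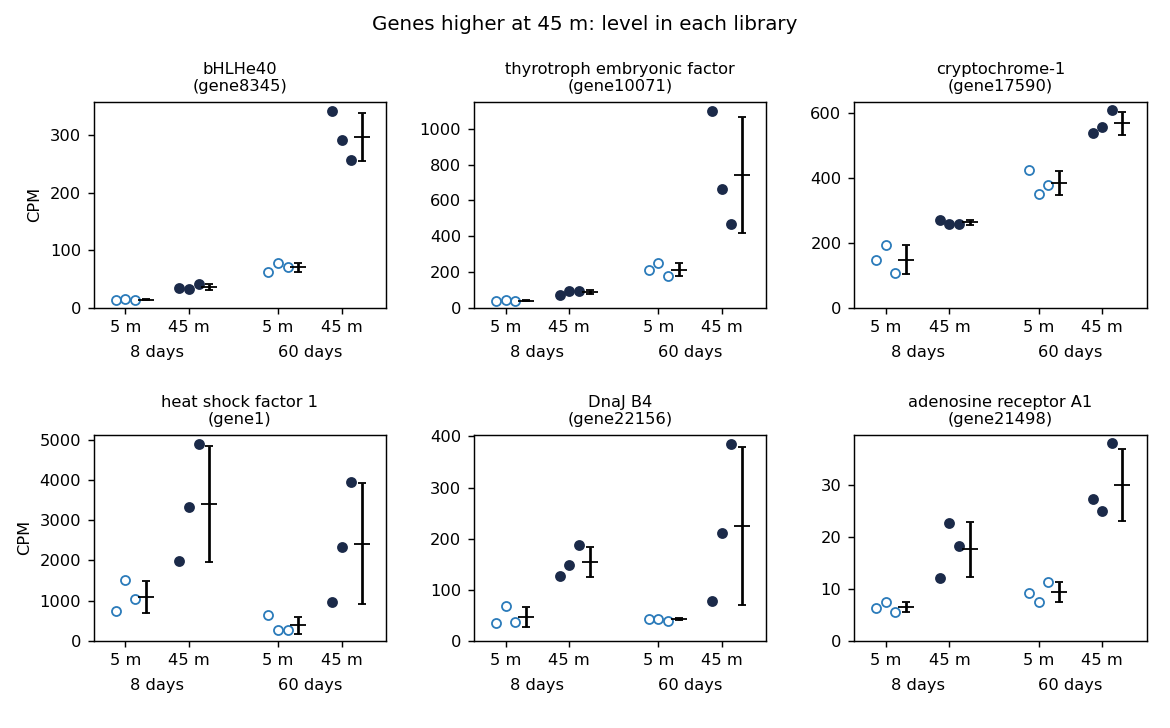
CPM (y axis, from 0) in each of the 12 libraries for 6 genes that rose, by growth depth and age (x axis). Open circles are 5 m libraries and filled circles 45 m libraries, with mean ± SD of 3 beside them. In each panel the 45 m libraries lie above the 5 m libraries of their age, and the bHLHe40 gene reaches 257 to 342 CPM only in 60-day translocated juveniles.

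Apart from cryptochrome-1 above, no gene listed for opsins, phototransduction or fluorescent proteins passed the test. Of 37 tested genes for opsins and phototransduction, 0 were called, and 31 had a log2 fold change above 0, with a median of 0.40. The member with the smallest p was a pinopsin (gene13656), an opsin known from the pineal gland of birds, with a log2 fold change of 2.05 (adjusted p = 0.0822). All 5 tested genes for GFP-like proteins, the pigments that make coral tissue fluoresce, lay below 0, with a median of −1.23 and none called. The most shifted, gene28123, was at 515, 286 and 395 CPM in the 8-day controls against 46.5, 28.3 and 15.7 CPM in the 8-day translocated juveniles, and 5881, 4992 and 2.35 CPM against 639, 81.8 and 95.5 CPM at 60 days. At 8 days every translocated library lay below every control. At 60 days control replicate 3 was lower than all translocated libraries, and the estimate was a log2 fold change of −3.73 ± 1.08 (SE), adjusted p = 0.114. Among 12 immediate early and related factors, genes switched on within minutes of a stimulus, 0 were called, and the median was 0.54. A c-Fos gene (gene20908) was at 405, 663 and 565 CPM in the 8-day controls against 1258, 2964 and 3491 CPM in the 8-day translocated juveniles, and 692, 194 and 412 CPM against 261, 767 and 7923 CPM at 60 days, with a log2 fold change of 2.51 ± 0.68 (SE), adjusted p = 0.1. The depths did not overlap at 8 days and overlapped at 60 days.

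Nuclear genes for the respiratory chain were among those that fell. Of 61 tested oxidative phosphorylation genes 8 fell (13 with DESeq2) and 0 rose, beside 0.331% lower over all genes, and the median was −0.32. The list divides by genome. Of its 51 nuclear genes 49 lay below 0 (median −0.36) and all 8 calls were among them. Of its 10 genes encoded in the mitochondrial genome 3 lay below 0 (median 0.06) and none was called. Their SE ran from 0.30 to 0.49, beside 0.15 for the called nuclear gene11659, so shifts in them were less well resolved. How fully polyadenylated RNA captured their transcripts was not tested. This division was made after the values were seen.

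Complex I, which takes electrons from NADH, was represented by 4 of the 8. Its 49 kDa subunit (gene13246) was at 421, 251 and 423 CPM in the 8-day controls against 203, 202 and 164 CPM in the 8-day translocated juveniles, and 388, 344 and 362 CPM against 189.5, 156 and 186 CPM at 60 days. No translocated library reached the level of any control, with a log2 fold change of −0.99 ± 0.14 (SE), adjusted p = 0.0158. Subunit 8 (gene4711) had a log2 fold change of −0.99 ± 0.15 (SE), adjusted p = 0.0161, again with no overlap between the 6 and the 6. The 2 flavoproteins that form the entry of the complex, gene24346 and gene8501, had log2 fold changes of −0.94 (adjusted p = 0.0201) and −0.79 (adjusted p = 0.0491), with overlap in the second at 8 days.

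Complex II, succinate dehydrogenase, feeds electrons from the citrate cycle. Its iron-sulfur subunit (gene10554) was at 300.4, 219.6 and 304 CPM in the 8-day controls against 155, 185 and 141 CPM in the 8-day translocated juveniles, and 623, 442 and 418 CPM against 189.6, 174 and 207 CPM at 60 days. The depths were apart at each age and over all 12 libraries, and the log2 fold change was −1.08 ± 0.16 (SE), adjusted p = 0.0183. Its flavoprotein subunit (gene22267) had a log2 fold change of −0.98 ± 0.16 (SE), adjusted p = 0.0236. Cytochrome c1 of complex III (gene2053), which holds a heme, averaged 329 ± 61.8 CPM in 8-day controls, 208 ± 22.5 in 8-day translocated juveniles, 399.9 ± 37.9 in 60-day controls and 181 ± 30.01 in 60-day translocated juveniles (CPM, SD, n = 3). Its log2 fold change was −0.90 ± 0.14 (SE), adjusted p = 0.0224. The eighth call was COX20 (gene11659), a helper in building complex IV, with a log2 fold change of −0.80 (adjusted p = 0.0416). With 1 library left out, the 49 kDa subunit stayed called in all 12 fits and subunit 8 in 11 of 12, the others in 2 to 9 (adjusted p = 0.127 without translocated 8-day replicate 3 for gene8501). The number of list members called lower then ranged from 1 (without translocated 8-day replicate 3) to 10 (without control 8-day replicate 2).

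Factors that assemble the respiratory complexes, and makers of their heme and iron-sulfur groups, were also among the genes that fell. These 3 groups were picked by name after the values were seen, so their counts are descriptions. Over all genes 0.331% fell. All 27 tested assembly factors lay below 0, with a median of −0.60, and 6 fell, COX20 above among them. COX15 (gene22919), which makes the heme A of complex IV, was at 138, 105 and 156 CPM in the 8-day controls against 64.4, 73.2 and 62.97 CPM in the 8-day translocated juveniles, and 209, 169 and 246 CPM against 54.1, 35.8 and 34.9 CPM at 60 days. The 60-day translocated libraries were the lowest of all 12, and the log2 fold change was −1.65 ± 0.25 (SE), adjusted p = 0.0183. SCO1 (gene19166), which delivers copper to complex IV, had a log2 fold change of −1.05 ± 0.17 (SE), adjusted p = 0.0236. A factor of succinate dehydrogenase, SDHAF2 (gene7709), had a log2 fold change of −1.32 (adjusted p = 0.0464) and one of complex III (gene23837) at −1.11 (adjusted p = 0.0276).

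All 8 tested enzymes of heme synthesis lay below 0 (median −0.49), and the last of the pathway fell. Ferrochelatase (gene6489), which inserts iron into the ring, was at 213, 186 and 252 CPM in the 8-day controls against 119.7, 112 and 86.5 CPM in the 8-day translocated juveniles, and 474, 422 and 573 CPM against 102, 74.1 and 116 CPM at 60 days. Every translocated library lay below every control, with a log2 fold change of −1.68 ± 0.24 (SE), adjusted p = 0.0161. The log2 fold changes of the other 7 ranged from −0.78 to −0.15 and did not pass the test. A pair of proteins that bind heme or its precursors also fell, heme-binding protein 2 (gene2422) with a log2 fold change of −1.67 (adjusted p = 0.0351) and the translocator protein of the outer mitochondrial membrane (gene24730) at −1.17 (adjusted p = 0.0375). All 11 tested genes for iron-sulfur cluster supply were below 0 (median −0.49) and 3 fell. Cysteine desulfurase (gene21050), the sulfur donor, fell, with a log2 fold change of −1.04 ± 0.15 (SE), adjusted p = 0.0167, glutaredoxin 5 (gene6733), which passes clusters on, by −0.85 (adjusted p = 0.0339) and a CDGSH domain protein (gene7869) by −1.27 (adjusted p = 0.0339). With 1 library left out, COX15 and ferrochelatase stayed called in all 12 fits and cysteine desulfurase in 10 of 12. The other genes named for assembly, heme and iron-sulfur supply did so in 2 to 5 of 12, with adjusted p = 0.113 without translocated 60-day replicate 3 for SDHAF2.

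**Figure D3:**
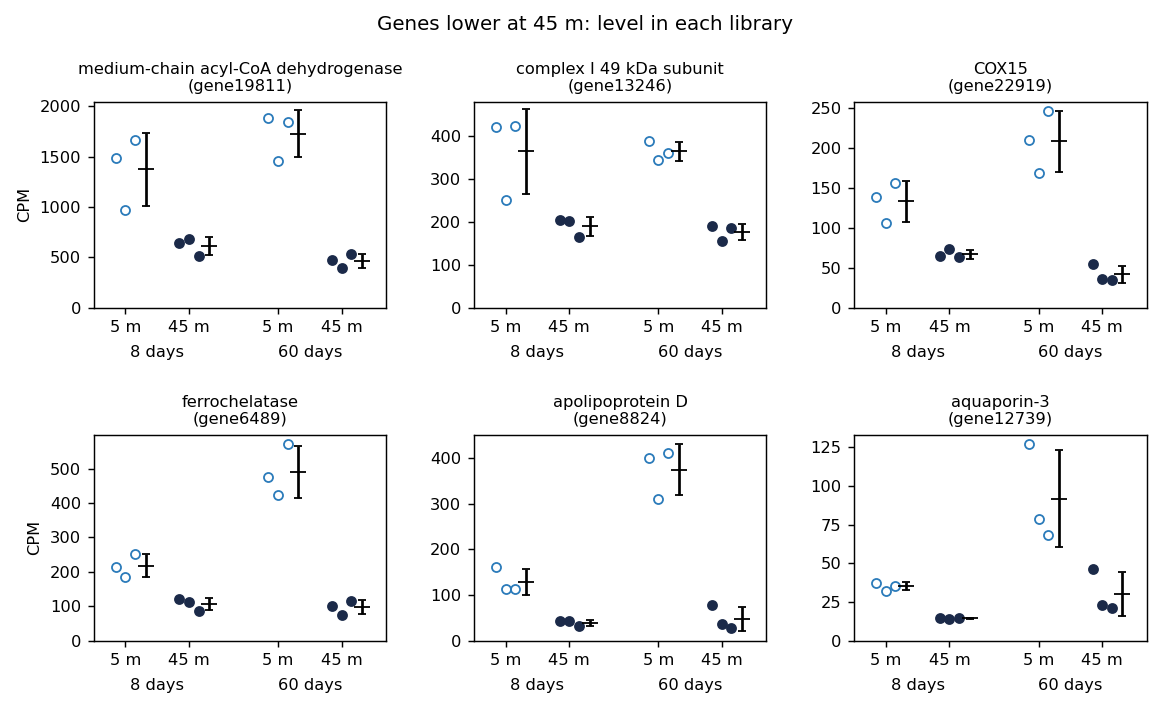
CPM (y axis, from 0) in each of the 12 libraries for 6 genes that fell, by growth depth and age (x axis), drawn as in the plot of the genes that rose. Translocated libraries lie below the controls of their age in every panel, and ferrochelatase stays at 74.1 to 120 CPM in all 6 translocated libraries against 186 to 573 CPM in the controls.

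Enzymes that break down fatty acids were among the genes that fell. Of 48 tested genes 7 fell and 0 rose, beside 0.331% lower over all genes, 42 lay below 0 and the median was −0.40. Medium-chain acyl-CoA dehydrogenase (gene19811), which opens the mitochondrial spiral of oxidation for medium chains, was at 1486, 968 and 1663 CPM in the 8-day controls against 638, 685 and 512 CPM in the 8-day translocated juveniles, and 1882, 1457 and 1846 CPM against 473, 394 and 532 CPM at 60 days. The highest translocated library lay below the lowest control, and the log2 fold change was −1.53 ± 0.19 (SE), adjusted p = 0.0151. ACAD9 (gene6826), of the same enzyme family and in mammals also needed to assemble complex I, had a log2 fold change of −1.22 ± 0.17 (SE), adjusted p = 0.0158. The peroxisomal acyl-CoA oxidase 2 (gene5142) had a log2 fold change of −0.84 ± 0.12 (SE), adjusted p = 0.0158. The short-chain dehydrogenase (gene7820) and a dienoyl-CoA isomerase (gene25524), which prepares unsaturated chains, had log2 fold changes of −0.95 and −1.11. The carriers that hand the electrons on to ubiquinone, electron transfer flavoprotein alpha (gene7112) and its oxidoreductase (gene10075), had log2 fold changes of −0.70 and −0.68. The first 3 stayed called in all 12 fits with 1 library left out and the other 4 in 3 to 6 (adjusted p = 0.113 without control 8-day replicate 1 for gene7820). The list's count ranged from 3 (without control 8-day replicate 1 or 3, translocated 8-day replicate 3, control 60-day replicate 1 or 3, or translocated 60-day replicate 2) to 8.

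Carbon supply upstream of the chain gave few calls, beside 0.360% higher and 0.331% lower over all genes. In the citrate cycle list 1 of 23 tested genes fell, dihydrolipoyl dehydrogenase (gene1837), a subunit shared by the large dehydrogenase complexes, with a log2 fold change of −0.54 ± 0.11 (SE), adjusted p = 0.0434, and the median was −0.28. Of the 23, 19 lay below 0 and 13 had an unadjusted p under 0.05, beside 18.5% of all genes tested. Succinate dehydrogenase, also an enzyme of the cycle, is not in this list. Its iron-sulfur and flavoprotein subunits, which fell, were counted with the respiratory chain above. In glycolysis and gluconeogenesis 1 of 15 rose. This was hexokinase-1 (gene3152), which traps glucose in the cell, at 67.3, 71.6 and 83.8 CPM in the 8-day controls against 101, 157 and 184 CPM in the 8-day translocated juveniles, and 63.97, 61.7 and 75.02 CPM against 83.7, 128 and 196 CPM at 60 days. The depths did not overlap at either age, and the log2 fold change was 1.01 ± 0.20 (SE), adjusted p = 0.0458, against a list median of −0.19. The monocarboxylate transporter 12-B (gene5734) rose, with a log2 fold change of 0.73 (adjusted p = 0.0276), 1 of 109 tested transporters of sugars, sterols and amino acids. Glutamate dehydrogenase (gene3742), which releases or binds ammonium, fell, with a log2 fold change of −0.99 (adjusted p = 0.0477). Called only in 2 of 12 fits with 1 library left out, hexokinase-1 had adjusted p = 0.12 without translocated 8-day replicate 3. The calls of gene1837, gene5734 and gene3742 held in 2 to 4 (adjusted p = 0.122 without translocated 8-day replicate 3 for gene3742).

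Of 60 tested genes for lipid synthesis and storage 2 fell and 0 rose, beside 0.331% lower over all genes. Apolipoprotein D (gene8824), a carrier of small lipids, was at 162, 113 and 112 CPM in the 8-day controls against 42.1, 43.5 and 31.1 CPM in the 8-day translocated juveniles, and 400.3, 311 and 411 CPM against 78.04, 36.1 and 28.7 CPM at 60 days. The highest translocated library lay below the lowest control, and the log2 fold change was −2.35 ± 0.30 (SE), adjusted p = 0.0155. The lysosomal group XV phospholipase A2 (gene16566) had a log2 fold change of −1.24 ± 0.25 (SE), adjusted p = 0.0477, called in 2 of 12 fits with 1 library left out (adjusted p = 0.119 without translocated 60-day replicate 3). An acyl-lipid desaturase (gene15347), outside this list, also fell, with a log2 fold change of −0.85 (adjusted p = 0.0161).

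Some genes for the upkeep of mitochondria were among those that fell. All 51 tested genes of the mitochondrial ribosome lay below 0 at a median of −0.44, beside 11222 of 23592 genes tested. Of the 51, 41 had an unadjusted p under 0.05, beside 18.5% of all genes tested. Only 1 passed the threshold (7 with DESeq2), beside 0.331% lower over all genes. This was protein L12 (gene5868) with a log2 fold change of −0.78 ± 0.15 (SE), adjusted p = 0.0369. Among 11 proteases, chaperones and prohibitins of mitochondria, grouped after the values were seen, all lay below 0 and 6 fell. AFG3-like protein 2 (gene9260), a protease of the inner membrane, was at 375, 311 and 427 CPM in the 8-day controls against 235, 242 and 207 CPM in the 8-day translocated juveniles, and 626, 566 and 598 CPM against 227, 239 and 277 CPM at 60 days. Translocated libraries all lay below the lowest control, with a log2 fold change of −0.98 ± 0.14 (SE), adjusted p = 0.0158. The chaperones mortalin (stress-70, gene3174) and HSP10 (gene5472), which import and fold proteins there, had log2 fold changes of −0.90 (adjusted p = 0.0389) and −0.75 (adjusted p = 0.0204). The unfoldase ClpX (gene13958) had a log2 fold change of −1.03 (adjusted p = 0.0362), stomatin-like protein 2 (gene17903) −0.65 (adjusted p = 0.0352) and a prohibitin (gene15259) −0.81 (adjusted p = 0.0458). For handling of mitochondrial RNA, the helicase SUPV3L1 (gene18478) fell, with a log2 fold change of −1.28 (adjusted p = 0.0481) and LRPPRC (gene11493) by −0.76 (adjusted p = 0.0236). With 1 library left out AFG3-like protein 2 stayed called in all 12 fits. The other genes of this group did so in 1 to 5, the fewest being SUPV3L1 (adjusted p = 0.119 without translocated 60-day replicate 2). The 11 tested genes encoded in the mitochondrial genome had a median of 0.04 with 0 called, 0.31 at 8 days and −0.32 at 60 days. Their SE ran from 0.30 to 0.49. Cytochrome c oxidase subunit I (gene28907) had a log2 fold change of 0.53 (adjusted p = 0.468).

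**Figure D4:**
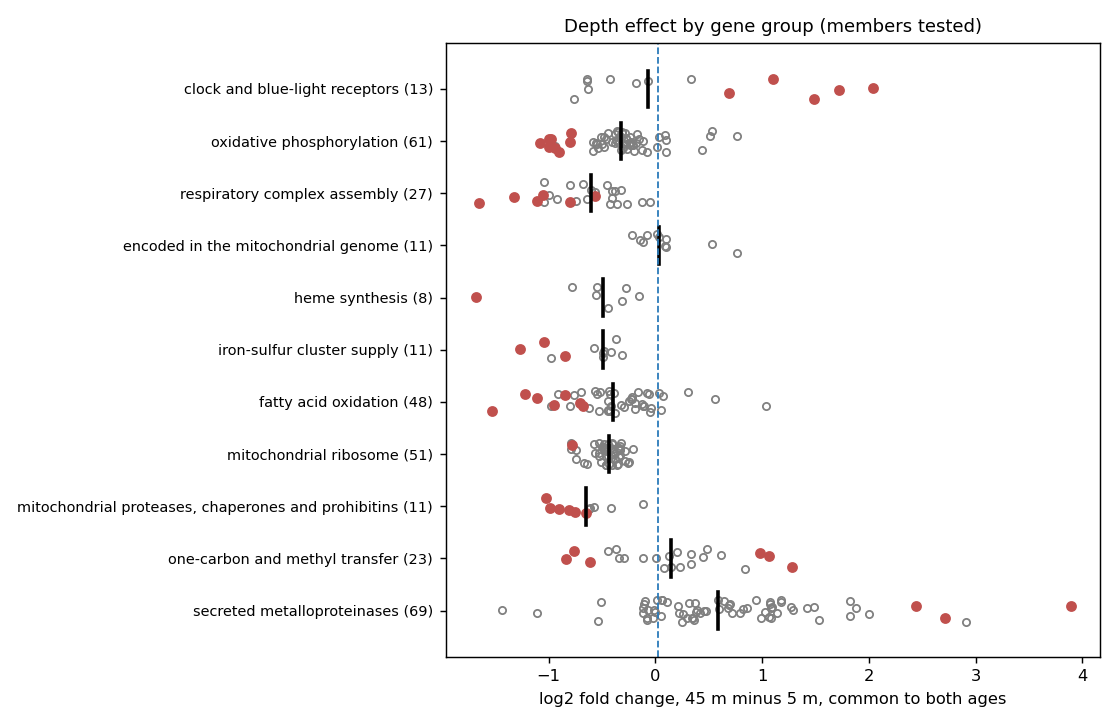
Log2 fold change of 45 m against 5 m common to both ages (x axis) for the tested members of 11 gene groups (y axis, number tested in brackets). The group labelled secreted metalloproteinases also holds the membrane-bound metalloproteinase-17. Filled points passed an adjusted p under 0.05, black bars are group medians and the dashed line is the median of all genes tested (0.03). The medians of oxidative phosphorylation, complex assembly, heme synthesis, iron-sulfur supply, fatty acid oxidation and both groups of mitochondrial upkeep lie left of the line, genes of the mitochondrial genome lie around it, and 5 called clock genes lie to its right.

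Enzymes that move methyl groups were split. Of 23 tested genes of one-carbon metabolism, grouped after the values were seen, 3 rose and 3 fell, beside 0.360% and 0.331% over all genes. Methionine synthase (gene5219), which makes methionine from homocysteine with a folate methyl group, was at 114, 115 and 129.7 CPM in the 8-day controls against 73.1, 77.3 and 68.4 CPM in the 8-day translocated juveniles, and 139, 123 and 157 CPM against 79.7, 60.8 and 74.8 CPM at 60 days. All translocated libraries lay below all controls, with a log2 fold change of −0.84 ± 0.11 (SE), adjusted p = 0.0151. The alternative enzyme that uses betaine for the same step, gene95, was at 45.6, 29.9 and 24.5 CPM in the 8-day controls against 74.96, 54.3 and 47.7 CPM in the 8-day translocated juveniles, and 40.2, 37.4 and 42.3 CPM against 116, 113 and 172 CPM at 60 days. Here every translocated library lay above every control, with a log2 fold change of 1.28 ± 0.22 (SE), adjusted p = 0.029. Glycine N-methyltransferase (gene18735), which spends methyl groups on glycine, rose, with a log2 fold change of 1.06 ± 0.16 (SE), adjusted p = 0.0187, and 10-formyltetrahydrofolate dehydrogenase (gene12012) by 0.98 ± 0.18 (SE), adjusted p = 0.0352. Mitochondrial serine hydroxymethyltransferase (gene20432) had a log2 fold change of −0.61 (adjusted p = 0.0362) and a choline dehydrogenase (gene5001), named for the maker of betaine, −0.76 (adjusted p = 0.0434). Its namesakes gene4999 and gene5000 did not pass, with log2 fold changes of −0.11 (adjusted p = 0.787) and 0.45 (adjusted p = 0.34). The other 4 genes with the name of gene95, the enzyme that uses betaine, did not pass. Of these, gene24069 had a log2 fold change of 0.84 (adjusted p = 0.084), and gene17170, gene17171 and gene17172 had 0.01, 0.13 and 0.08. Methionine synthase stayed called in all 12 fits with 1 library left out, gene18735 in 9 of 12, gene95 in 7 of 12 and the other 3 in 3 of 12 (adjusted p = 0.112 without translocated 8-day replicate 3 for choline dehydrogenase).

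The heat shock regulator and some of its partners rose, while most chaperones did not pass the test. Of 122 tested genes 4 rose and 1 fell, beside 0.360% and 0.331% over all genes, at a median of −0.06. Heat shock factor 1 (gene1), the transcription factor that switches on chaperone genes, was at 733, 1521 and 1040.4 CPM in the 8-day controls against 1985, 3336 and 4892 CPM in the 8-day translocated juveniles, and 631, 268 and 262 CPM against 963, 2335 and 3965 CPM at 60 days. The depths did not overlap at either age, though libraries of 1 group spread widely. The log2 fold change was 2.14 ± 0.41 (SE), adjusted p = 0.0418. The co-chaperone DnaJ B4 (gene22156) was at 34.6, 68.3 and 35.7 CPM in the 8-day controls against 127, 149 and 186 CPM in the 8-day translocated juveniles, and 42.6, 43.3 and 39.2 CPM against 77.2, 211 and 385 CPM at 60 days. All 6 translocated libraries lay above all 6 controls, with a log2 fold change of 2.08 ± 0.34 (SE), adjusted p = 0.0236. DnaJ B5 (gene22162) had a log2 fold change of 1.503 ± 0.25 (SE), adjusted p = 0.0236, and HSP70 12A (gene1630), a distant HSP70 relative, 2.23 ± 0.33 (SE), adjusted p = 0.0167. The member that fell was the mitochondrial HSP10 given above. Mortalin and ClpX of the mitochondria, given above too, also fell but lie outside this list, which was made by product names. With 1 library left out HSP70 12A stayed called in 9 of 12 fits, DnaJ B4 in 5 of 12, DnaJ B5 in 4 of 12 and heat shock factor 1 in 3 of 12 (adjusted p = 0.114 without translocated 8-day replicate 3). The number called higher was 0 without control 8-day replicate 1, translocated 8-day replicate 3 or control 60-day replicate 3, and 12 without translocated 60-day replicate 1.

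Antioxidant genes moved in both directions, 4 down and 1 up of 113 tested, beside 0.331% and 0.360% over all genes. The repair enzyme peptide methionine sulfoxide reductase (gene23729) was at 149, 109.5 and 146 CPM in the 8-day controls against 88.8, 82.2 and 65.9 CPM in the 8-day translocated juveniles, and 228, 193 and 255 CPM against 118, 96.4 and 115 CPM at 60 days. Neither age overlapped, and it fell, with a log2 fold change of −0.90 ± 0.13 (SE), adjusted p = 0.0158. Peroxiredoxin-1 (gene15033), a peroxide remover, had a log2 fold change of −0.95 (adjusted p = 0.0476), with overlap at 8 days, and peroxiredoxin-6 (gene14847) rose, at 0.87 (adjusted p = 0.0431). The others called were glutaredoxin 5, given above, and thioredoxin-like 4A (gene4695), a part of the spliceosome, with a log2 fold change of −0.67 (adjusted p = 0.0477). The sulfoxide reductase stayed called in all 12 fits with 1 library left out, peroxiredoxin-1 in 3 of 12, thioredoxin-like 4A in 3 of 12 and peroxiredoxin-6 in 2 of 12 (adjusted p = 0.12 without translocated 8-day replicate 3 for peroxiredoxin-1).

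Among genes for extracellular matrix and adhesion 5 rose and 0 fell of 434 tested, beside 0.360% higher over all genes, and the median was 0.37. Matrix metalloproteinase-17 (gene6762), a membrane-bound protease of matrix, was at 92.2, 209.9 and 139 CPM in the 8-day controls against 285, 606 and 961 CPM in the 8-day translocated juveniles, and 98.03, 158 and 103 CPM against 179, 1797 and 1693 CPM at 60 days. The depths did not overlap at either age, but translocated 60-day replicate 1, at 179 CPM, stood near the controls. The log2 fold change was 2.71 ± 0.54 (SE), adjusted p = 0.0458. An astacin-type protease, nas-4 (gene14891), was at 11.4, 21.8 and 4.20 CPM in the 8-day controls against 29.4, 54.05 and 50.4 CPM in the 8-day translocated juveniles, and 2.19, 5.46 and 1.40 CPM against 18.7, 35.3 and 23.4 CPM at 60 days, with a log2 fold change of 2.44 ± 0.46 (SE), adjusted p = 0.0366. Of 69 astacin-type and matrix metalloproteinases, grouped after the values were seen, 3 rose, 55 lay above 0 and the median was 0.59. The third was SpAN (gene14888), named for a sea urchin protease of the blastula, with a log2 fold change of 3.89 (adjusted p = 0.0477), with overlap at 60 days. A pair of collagen alpha-1(I) genes (gene3683 and gene2123) rose, with log2 fold changes of 1.05 (adjusted p = 0.0458) and 0.96 (adjusted p = 0.0491). Hemicentin-2 (gene21030), a long matrix protein, rose, with a log2 fold change of 3.14 (adjusted p = 0.0362). None of these 6 held its call in more than 3 of 12 fits with 1 library left out (adjusted p = 0.125 without translocated 8-day replicate 3 for the metalloproteinase-17). The list's count was 17 without translocated 60-day replicate 1, 7 without control 8-day replicate 2 or translocated 8-day replicate 1, and 0 without any other single library.

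Among the called genes were 6 channels and carriers, picked from the calls and not from a list. In the list of ion channels 0 of 212 tested genes were called. Aquaporin-3 (gene12739), a channel for water and glycerol, was at 37.4, 32.3 and 35.4 CPM in the 8-day controls against 14.4, 14.2 and 14.5 CPM in the 8-day translocated juveniles, and 127, 78.9 and 68.6 CPM against 46.2, 23.3 and 21.01 CPM at 60 days. The 8-day translocated libraries had an SD of 0.108 CPM (n = 3), neither age overlapped, and it fell, with a log2 fold change of −1.44 ± 0.21 (SE), adjusted p = 0.0161. Aquaporin-4 (gene11452), a water channel, rose, with a log2 fold change of 1.25 ± 0.21 (SE), adjusted p = 0.0265. Riboflavin transporter 2 (gene22954), a carrier of the vitamin from which flavin cofactors are made, was at 14.7, 11.7 and 14.2 CPM in the 8-day controls against 7.36, 5.64 and 4.58 CPM in the 8-day translocated juveniles, and 84.5, 51.4 and 103 CPM against 3.43, 9.45 and 4.99 CPM at 60 days. All 6 translocated libraries lay below all 6 controls, with a log2 fold change of −2.46 ± 0.48 (SE), adjusted p = 0.0435. Of the organic cation transporters gene18787 fell, with a log2 fold change of −1.47 (adjusted p = 0.0376) and gene21254 rose, at 0.95 (adjusted p = 0.0236). Chloride intracellular channel 2 (gene548) rose, with a log2 fold change of 2.32 ± 0.36 (SE), adjusted p = 0.0201. Aquaporin-3 stayed called in all 12 fits with 1 library left out, the other 5 in 3 to 6 (adjusted p = 0.111 without translocated 60-day replicate 2 for the riboflavin transporter).

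Several receptors and regulators rose. Of those below, the adenosine receptor A1 and the nuclear receptor 2C2 were picked from the calls after their values were seen. The adenosine receptor A1 (gene21498), a receptor for extracellular adenosine, was at 6.24, 7.46 and 5.57 CPM in the 8-day controls against 12.1, 22.6 and 18.2 CPM in the 8-day translocated juveniles, and 9.14, 7.43 and 11.4 CPM against 27.2, 24.95 and 37.9 CPM at 60 days. The lowest translocated library lay above the highest control, with a log2 fold change of 1.57 ± 0.19 (SE), adjusted p = 0.0151. Notch homolog 1 (gene3191), a receptor that sets cell fates between neighbours, was at 32.6, 41.8 and 20.2 CPM in the 8-day controls against 44.8, 55.8 and 70.9 CPM in the 8-day translocated juveniles, and 53.1, 58.99 and 49.5 CPM against 193, 202 and 194 CPM at 60 days and rose, with a log2 fold change of 1.36 ± 0.22 (SE), adjusted p = 0.0236, the 1 call among 236 signalling genes. The adhesion receptor G4 (gene19769) had a log2 fold change of 1.60 ± 0.26 (SE), adjusted p = 0.0236. The small GTPase Rap-2b (gene21882) had a log2 fold change of 1.65 (adjusted p = 0.048) and DPH3 (gene13263), a helper in modifying elongation factor 2, 1.70 (adjusted p = 0.0477). Among transcription factors, the nuclear receptor 2C2 (gene16855) rose, with a log2 fold change of 1.26 ± 0.18 (SE), adjusted p = 0.0161, and ETV5 (gene3588) by 1.02 (adjusted p = 0.0442), while the homeobox factor Nkx-2.5 (gene5660) fell, at −0.75 (adjusted p = 0.0418). Of 201 developmental factors 1 rose and 1 fell. These counts and the 1 of 236 signalling genes are close to the 0.360% higher and 0.331% lower over all genes. The adenosine receptor stayed called in all 12 fits with 1 library left out and the nuclear receptor in 11 of 12. The other 6 did so in 2 to 5, with adjusted p = 0.12 without translocated 8-day replicate 3 for ETV5.

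Immune and death genes gave few calls, 1 of 325 and 1 of 39, both higher. Over all genes 0.360% rose, which is close to the immune share. CARD9 (gene4823), in mammals an adaptor that relays fungal recognition, was at 2.16, 1.76 and 2.34 CPM in the 8-day controls against 10.7, 5.43 and 4.02 CPM in the 8-day translocated juveniles, and 6.35, 4.53 and 9.35 CPM against 32.6, 34.3 and 48.5 CPM at 60 days. Neither age overlapped, with a log2 fold change of 2.11 ± 0.29 (SE), adjusted p = 0.0158. The NACHT and WD repeat protein 2 (gene950) rose, with a log2 fold change of 1.21 ± 0.22 (SE), adjusted p = 0.0325. The death-associated kinase dapk-1 (gene7284), outside both lists and picked from the calls, rose by 0.94 ± 0.13 (SE), adjusted p = 0.0158. CARD9 and dapk-1 stayed called in all 12 fits with 1 library left out and gene950 in 4 of 12 (adjusted p = 0.0924 without translocated 8-day replicate 3).

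The next 5 lists gave 0 or 1 calls each, beside 0.691% called over all genes. In calcification, 0 of 130 skeletal matrix genes and 0 of 57 ion transport genes were called. Galaxin (gene12581), a skeletal protein, was at 11.98, 19.4 and 6.46 CPM in the 8-day controls against 40.8, 300.0 and 394 CPM in the 8-day translocated juveniles, and 5.27, 19.3 and 26.4 CPM against 10.6, 84.4 and 353 CPM at 60 days, with overlap at 60 days and a log2 fold change of 3.71 ± 0.81 (SE), adjusted p = 0.0595. Carbonic anhydrase 1 (gene21459) was close to the threshold with a log2 fold change of −0.74 (adjusted p = 0.0509). Of the 75 cytosolic ribosome genes 72 lay above 0 at a median of 0.24, with medians of −0.14 at 8 days and 0.63 at 60 days. Their smallest p was that of protein S8 (gene26812), 1 of the 3 below 0, with a log2 fold change of −0.52 (adjusted p = 0.154). All 42 proteasome genes lay below 0 at a median of −0.28, led by subunit 2 (gene21505) with a log2 fold change of −0.33 (adjusted p = 0.175). Of 436 neuron and synapse genes 1 rose, FMR1 (gene22579), an RNA-binding regulator of translation at synapses, with a log2 fold change of 0.94 (adjusted p = 0.0477), called in 3 of 12 fits with 1 library left out.

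In the remaining lists none was called, and the members below had the smallest p of their lists. The venom gene DELTA-actitoxin-Oor1b (gene12019) had a log2 fold change of 4.72 (adjusted p = 0.0815) and the potassium channel subunit beta-4 (gene20746) 1.49 (adjusted p = 0.1). Retinoid-inducible carboxypeptidase (gene12331), of the digestive enzymes, had a log2 fold change of −0.60 (adjusted p = 0.0822). PARP16 (gene14772), listed under DNA repair, had a log2 fold change of −0.48 (adjusted p = 0.0913), the intraflagellar transport protein 80 (gene22577) −0.37 (adjusted p = 0.118), the helicase DDX49 (gene255), listed under germ line, −0.46 (adjusted p = 0.126) and the mitochondrial phenylalanine tRNA ligase (gene3841) −0.56 (adjusted p = 0.0771). The replication factor MCM5 (gene6786) was under 1 CPM in every library, with a log2 fold change of −3.07 (adjusted p = 0.0886).

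No informative name was held by 53 of the 163 genes. Among them gene23731 shared the smallest adjusted p with bHLHe40. It was at 84.4, 72.9 and 83.9 CPM in the 8-day controls against 40.8, 31.7 and 26.9 CPM in the 8-day translocated juveniles, and 138, 116 and 119 CPM against 48.7, 34.999 and 43.1 CPM at 60 days. All 6 translocated libraries lay below all 6 controls, with a log2 fold change of −1.42 ± 0.13 (SE), adjusted p = 0.00139, and it was called in every alternative run. The largest fall was that of gene23214, at 264, 165 and 319.8 CPM in the 8-day controls against 24.1, 26.3 and 18.6 CPM in the 8-day translocated juveniles, and 64.9, 11.5 and 31.7 CPM against 1.69, 6.32 and 2.84 CPM at 60 days. Neither age overlapped, and the log2 fold change was −3.38 ± 0.41 (SE), adjusted p = 0.0151. Both were named after their values were seen.

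The same genes were then read in corals native to each depth, adults and planulae, which share no library with the juveniles and number 3 libraries per stage and depth. The fit that gave the native values also held the juvenile libraries, so their scatter entered its SE and p-values. No test was made of this likeness. In planulae 125 of the 163 genes (76.7%) differed between deep and shallow in the direction of the juveniles, against 53.6% of all genes tested. In adults 112 (68.7%) did, against 48.6%. Among the 163, planulae had 67 genes called in the same direction and 9 in the opposite one, and adults 22 and 5. The test in planulae called 22.9% and that in adults 8.11% of 25735 genes, so calls were more frequent in planulae throughout. Leaving out 1 native library gave 73.6 to 77.3% in planulae and 62.6 to 74.2% in adults.

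Values in the native stages are log2 fold changes of deep against shallow. Of the 78 lowered genes 43 were also called lower in deep planulae and 3 higher, and 15 were called lower in deep adults and 0 higher. Apolipoprotein D had a log2 fold change of −1.24 ± 0.34 (SE; adjusted p = 0.0277) in adults and −1.42 ± 0.34 (SE; adjusted p = 0.00558) in planulae. COX15 had −1.14 ± 0.22 (SE; adjusted p = 0.00267) in adults and −1.47 ± 0.22 (SE; adjusted p = 0.000168) in planulae, and medium-chain acyl-CoA dehydrogenase −0.86 ± 0.24 (SE; adjusted p = 0.0312) and −1.27 ± 0.24 (SE; adjusted p = 0.00119). All 3 fell in both stages. Among genes that rose, matrix metalloproteinase-17 had a log2 fold change of 4.33 ± 0.96 (SE; adjusted p = 0.00354) in planulae and the adenosine receptor A1 2.29 ± 0.33 (SE; adjusted p = 0.000253) in adults. The bHLHe40 gene8345 had a log2 fold change of 0.88 ± 0.16 (SE; adjusted p = 0.000978) in planulae and −0.42 ± 0.16 (SE; adjusted p = 0.123) in adults. Cryptochrome-1 (gene17590) went the other way in adults, with a log2 fold change of −0.89 ± 0.18 (SE; adjusted p = 0.00438). The betaine enzyme gene95 was lower in both native deep stages, with log2 fold changes of −1.20 ± 0.32 (SE; adjusted p = 0.0249) and −1.83 ± 0.31 (SE; adjusted p = 0.000543). Aquaporin-4, which rose in the juveniles, had a log2 fold change of −2.01 ± 0.35 (SE; adjusted p = 0.0006) in deep planulae. Differences between stages were not tested.

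**Figure D5:**
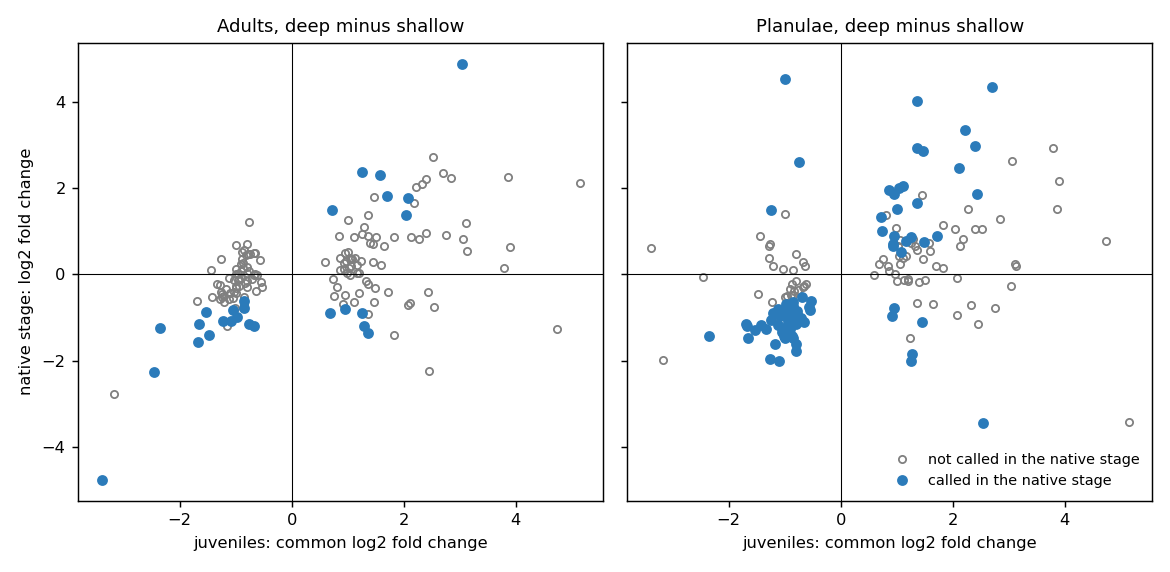
Log2 fold change of deep against shallow in native adults (left) and planulae (right, y axis) against that common to both juvenile ages (x axis) for the 163 called genes. Filled points passed an adjusted p under 0.05 in the native stage. In planulae 125 genes and in adults 112 lie in the lower left or upper right quadrant.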

How the data were processed

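Polyadenylated RNA of 24 coral libraries was sequenced as paired reads with molecular identifiers, per the labels' protocols. The deposited table holds raw counts per gene made by the authors. FastQC, MultiQC, cutadapt, Trimmomatic and DESeq2 are listed in the submitters' processing notes. Not given in the sources used here are aligner, counter, genome build, strand and how the identifiers were used, so reads of overlapping, antisense or near-identical genes may be shared. Product names came from the authors' deposited annotation, and 15283 of 33281 genes had an informative one. The table also lists gene length, which was not used.

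The 12 juvenile libraries held 15.79 to 35.78 M counts. Genes with too few counts for edgeR's filterByExpr over the 4 groups were left out, 9689 of them. The other 23592 were scaled by TMM and fitted with edgeR 4.0.16 (R 4.3.3, limma 3.58.1), quasi-likelihood, with age and depth as terms. Benjamini-Hochberg adjustment covered all genes tested, with a threshold of 0.05. A second model added the interaction of age and depth. Native adults and planulae were compared in a separate fit of all 24 libraries by group means, with the same filter, scaling and test, 25735 genes. Scatter of the juvenile libraries therefore also enters the SE and p-values of the native stages. SE is the absolute log2 fold change divided by the square root of F. CPM used the scaled library sizes. DESeq2 1.42.0, RLE scaling, other filters, thinning, a replicate block, all 24 libraries and leaving out each library were the alternatives. The main fits were tested on simulated data.

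Genes are named by rule, namely the 12 that rose most and the 12 that fell most of those called and carrying a name, at least 10 CPM in the higher depth and no overlap at either age, up to 3 called members per list with the smallest p (or else the single smallest), and the 5 named genes with the smallest interaction p. Members and lists were chosen with earlier results of these data known, and 8 groups were picked by name after their values were seen. One gene that the rule names is not reported here. No sequences are printed.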

Additional observations from a re-analysis of the deposited data

Results flagged for a closer look

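In 9 genes the depth effect at 60 days differed from that at 8 days by a test of the difference itself, edgeR's quasi-likelihood test of the interaction of depth and age. In 2 of them both ages moved alike, so they also carry a common effect. Protein giant (gene7333), in flies a bZIP repressor of body segments, was at 48.05, 45.1 and 45.9 CPM in the 8-day controls against 65.01, 59.6 and 61.2 CPM in the 8-day translocated juveniles, and 43.2, 45.7 and 40.5 CPM against 149, 143 and 144 CPM at 60 days. The depths did not overlap at either age, and the difference of the log2 fold changes was 1.34 ± 0.15 (SE), adjusted p = 0.0236. SUPV3L1 (gene18478) was at 56.1, 59.4 and 67.2 CPM in the 8-day controls against 36.8, 44.5 and 49.1 CPM in the 8-day translocated juveniles, and 114, 105 and 100.0 CPM against 23.7, 27.9 and 23.2 CPM at 60 days, falling at both ages and further at 60 days, by −1.60 ± 0.21 (SE), adjusted p = 0.0325.

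In the other 7 the common effect did not pass the test. NDUFA4 (gene17976), a subunit of complex IV, was at 16.5, 24.2 and 15.1 CPM in the 8-day controls against 22.8, 39.6 and 47.96 CPM in the 8-day translocated juveniles, and 124, 149 and 198 CPM against 17.4, 21.03 and 26.6 CPM at 60 days. Its log2 fold changes were 0.98 ± 0.30 at 8 days and −2.86 ± 0.31 at 60 days, so the ages had opposite signs, and the difference was −3.84 ± 0.43 (SE), adjusted p = 0.0236. The hemagglutinin/amebocyte aggregation factor (gene23284), named for a protein of horseshoe crab blood cells, was at 1.30, 1.31 and 1.34 CPM in the 8-day controls against 1.57, 0.543 and 2.24 CPM in the 8-day translocated juveniles, and 0.0743, 0.138 and 0.056 CPM against 39.5, 6.99 and 24.3 CPM at 60 days. The depths overlapped at 8 days and were apart at 60 days, with a difference of 7.77 ± 0.99 (SE), adjusted p = 0.0325.

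The 5 without an informative name were gene8688 with −0.27 ± 0.22 at 8 days and 2.42 ± 0.23 at 60 days (adjusted p of the difference = 0.0236), gene5878 with 0.22 ± 0.33 at 8 days and 3.94 ± 0.37 at 60 days (0.0325), the pseudogene gene13822 with 2.32 ± 0.65 at 8 days and −4.85 ± 0.72 at 60 days (0.0366), gene10526 with −0.14 ± 0.43 at 8 days and 5.38 ± 0.63 at 60 days (0.0469) and gene3063 with −0.33 ± 0.19 at 8 days and 1.54 ± 0.19 at 60 days (0.0498). Controls of gene10526, and of gene23284 above, held almost no counts at 60 days, so the folds of both there depend on the prior count. The next named gene was the repair protein XPC (gene6103), whose difference of −2.01 ± 0.30 (SE), adjusted p = 0.0605 did not pass. Leaving out 1 library gave 0 to 28 such genes.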

How the results depend on the processing

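The count of genes with a common depth effect was 163 (85 higher, 78 lower, 9 with a different effect at the 2 ages). DESeq2 gave 1505 (986 higher, 519 lower, 397), a fit of the 4 group means 508 (275 and 233), all 24 libraries 475 (243 and 232, 20), and a replicate block within age 7 (4 and 3, 0). The block shared 6 genes with the 163. The labels do not say whether replicate numbers pair the libraries. Deviations of same-numbered libraries had correlations from −0.10 to 0.29, and those of differently numbered libraries from −0.22 to 0.28. These cannot decide whether the samples are paired. Thinning every library to the smallest total gave 165, with 3 in place of 9 genes differing between ages. RLE scaling, no filter and a filter of 10 counts in 6 libraries gave 151 to 169. Leaving out 1 library gave 28 to 464 genes (12 to 364 higher, 16 to 118 lower, 0 to 28 between ages), a difference in totals of −6.92 to −3.60 M, in genes detected of −728 to −122, and native genes of the same sign of 62.6 to 74.2% in adults and 73.6 to 77.3% in planulae. The difference in genes detected, −364, reversed to 34.7 after thinning (exact permutation p = 0.92). No called gene changed sign in any of the 20 alternatives, which reuse the libraries that gave the calls, and 4 kept the call in all 20. The mitochondrial name group had 30 genes lower, 91 with DESeq2 and 0 in the block. The causes of these shifts were not tested. At 3 libraries per group and these totals, small differences of genes with low counts may go undetected.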

Other observations

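Some further named genes passed the test of the common depth effect and were chosen for mention after their values were seen. The first 8 given here fell. An acyl-lipid desaturase (gene15347), which adds double bonds to fatty acids, averaged 202 ± 7.29 CPM in 8-day controls and 137 ± 9.92 CPM in 8-day translocated juveniles, then 343 ± 39.6 and 155 ± 10.5 CPM at 60 days (SD, n = 3). Its log2 fold change was −0.85 ± 0.13 (SE), adjusted p = 0.0161. Prostamide/prostaglandin F synthase (gene13508) had a log2 fold change of −1.21 (adjusted p = 0.0187), and kynurenine 3-monooxygenase (gene14316), of tryptophan breakdown, −0.93 (adjusted p = 0.0241). COQ6 (gene6701), which helps to make the ubiquinone of the respiratory chain, had a log2 fold change of −0.80 (adjusted p = 0.0311), and a subunit of vitamin B6 synthase (gene12464) −1.01 (adjusted p = 0.0362). OXA1L (gene15656), which inserts proteins into the inner mitochondrial membrane, had a log2 fold change of −0.57 (adjusted p = 0.0481), and mitochondrial initiation factor 2 (gene5151) −0.63 (adjusted p = 0.0391). Nucleolar RNA helicase 2 (gene21225) had a log2 fold change of −0.89 (adjusted p = 0.0339).

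Among genes that rose, the CSC1-like protein ERD4 (gene852), named for a plant gene of a family of ion channels, had a log2 fold change of 1.32 (adjusted p = 0.0161). The ring finger protein LONRF3 (gene18794) had a log2 fold change of 1.36 (adjusted p = 0.0187), and girdin (gene21536), which binds actin, 1.16 (adjusted p = 0.0236). The macrophage-expressed gene 1 protein (gene24068), in mammals a pore former that acts on bacteria, averaged 5.99 ± 0.994 CPM in 8-day controls, 13.4 ± 3.97 CPM in 8-day translocated juveniles, 6.87 ± 2.27 CPM in 60-day controls and 23.8 ± 9.05 CPM in 60-day translocated juveniles (SD, n = 3). Its log2 fold change was 1.48 ± 0.25 (SE), adjusted p = 0.0276. With 1 library left out, the desaturase and LONRF3 stayed called in all 12 fits and ERD4 in 11 of 12. The others named here did so in 2 to 9, with adjusted p = 0.127 without translocated 8-day replicate 3 for OXA1L. These p-values are from edgeR's quasi-likelihood test.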
